A study of Mus musculus with 4 samples.

Results

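The SOCS family holds *Cish* (the gene of CIS) and *Socs1* to *Socs7*, the inhibitors that cytokine receptors induce or use to switch off their own signal. Its members were taken by gene name from a count table of 25239 genes, and all 8 were found there. They were measured by RNA-seq in NKT cells sorted from the small intestinal lamina propria (SI-LP) of WT mice of the strain labelled C57BL/6Jax. The 4 libraries came from 2 experiments, and the sample titles mark replicates 3 and 4 as First and replicates 1 and 2 as Second, which is read here as the first and the second experiment. The mice were between 7 and 10 weeks old and of both sexes, with no age or sex given for a single library, and all of them had been injected with an antibody fragment against the enzyme ARTC2 before the tissue was taken. The cells had been sorted as live, TCRβ+, CD1d tetramer+ and negative for B220, CD11b, CD11c and CD8, and whether a library was 1 animal or a pool is not stated in the sources used here. There was 1 condition and no control group, so the comparisons below are between genes and between libraries.

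Cytokine receptors of the JAK-STAT class signal through Janus kinases, which phosphorylate STAT factors that then enter the nucleus and switch on target genes. SOCS genes are among these targets. Each SOCS protein has an SH2 domain, which binds phosphorylated tyrosines, and a SOCS box, which recruits a ubiquitin ligase through elongin B and elongin C, and SOCS1 and SOCS3 can in addition block the kinases directly. In T cells CIS and SOCS2 are known for their induction by cytokines that act through STAT5, SOCS1 for restraining IFN-γ and common γ chain cytokines, and SOCS3 for restraining cytokines that act through STAT3. SOCS4 to SOCS7 are less well known in lymphocytes, and some of them act on growth factor receptors.

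The libraries held 3882803 to 8732858 counts. The summed counts of 8 T cell markers (*Cd3e*, *Cd3d*, *Cd3g*, *Cd247*, *Cd2*, *Cd5*, *Lck* and *Trat1*) made up 0.254%, 0.115%, 0.276% and 0.128% of replicates 1 to 4, and *Cd8a* with *Cd8b1* at most 0.000149%. T cell markers were thus found in every library, at a lower share in replicates 2 and 4. These markers are of T cells in general and do not by themselves set NKT cells apart. Markers of epithelial cells (18 genes, all of them detected) took 0.0920%, 0.881%, 0.0177% and 2.92%, and were higher in replicates 2 and 4. Markers of plasma cells (6 genes, all detected) took 0.655%, 0.839%, 0.0114% and 0.0387%, and were higher in the second experiment. The plasma cell list took more than the T cell list in replicates 1 and 2, and the epithelial list did so in replicates 2 and 4. For plasma cells this rests on *Jchain*, which had 44022 and 66662 counts in replicates 1 and 2, most of the list. In replicate 4 most of the epithelial list was *Lyz1*, with 84299 counts. The B cell list stayed at or below 0.00625%, the myeloid list at or below 0.0175% with *S100a8* and *S100a9* at 0 in all libraries, the stromal and endothelial list at or below 0.0127% with *Vwf* and *Kdr* at 0, and the mast cell list at or below 0.00752% with *Mcpt1*, *Mcpt2* and *Cma1* at 0. The part of these other transcripts in the values below was not tested. In bulk RNA, fewer cells of a type and less RNA per cell cannot be told apart.

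Promoters of 3 genes of the family are shown first, because they hold matches to the STAT or interferon regulatory factor motifs described below. They stand for the most abundant cytokine-induced member that the reference table covers (*Cish*), the member known for STAT3 signals (*Socs3*) and the member that was seen in 1 experiment only (*Socs1*). RefSeq promoters on GRCm38.p6 were at hand for 4 of the 8 genes, and the fourth, that of *Socs4*, held no match to either motif below and is not shown. Each is written 5′ to 3′ on the strand of the gene, and the capitals mark a match to TTCNNNGAA, the pair of half-sites that STAT factors bind, in *Cish* and *Socs3*, and to the repeat that interferon regulatory factors bind (GAAA, any 2 bases, GAAA) in *Socs1*.
Cish, chr9:107296409-107296678, plus strand: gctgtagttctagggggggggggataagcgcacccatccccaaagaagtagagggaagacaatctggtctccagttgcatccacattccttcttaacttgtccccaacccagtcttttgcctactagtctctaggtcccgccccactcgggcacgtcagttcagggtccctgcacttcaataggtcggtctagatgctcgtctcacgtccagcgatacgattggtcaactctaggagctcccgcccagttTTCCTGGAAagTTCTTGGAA
Socs3, chr11:117969367-117969616, minus strand: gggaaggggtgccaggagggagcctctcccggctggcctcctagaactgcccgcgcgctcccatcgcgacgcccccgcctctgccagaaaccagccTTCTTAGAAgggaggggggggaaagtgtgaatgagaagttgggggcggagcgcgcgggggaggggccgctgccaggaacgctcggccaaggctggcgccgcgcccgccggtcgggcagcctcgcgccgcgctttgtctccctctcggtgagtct
Socs1, chr16:10785537-10785786, minus strand: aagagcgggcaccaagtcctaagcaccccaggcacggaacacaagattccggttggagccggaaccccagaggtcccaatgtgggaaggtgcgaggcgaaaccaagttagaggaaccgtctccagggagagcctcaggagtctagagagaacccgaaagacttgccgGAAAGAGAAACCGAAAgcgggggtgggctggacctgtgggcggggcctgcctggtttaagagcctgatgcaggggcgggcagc
The *Cish* window runs from 250 bases before the annotated start to 20 bases after it, and held 2 STAT matches, from position 1 to 9 and from position 12 to 20 of the transcript. The *Socs3* window is the 250 bases before the start and held 1 STAT match, at 154 to 146 bases before it. The *Socs3* start used, position 117969366, lies inside the RefSeq gene, which reaches position 117970336. The *Socs1* window is likewise the 250 bases before the start and held 2 matches to the interferon regulatory factor repeat, at 83 to 74 and at 77 to 68 bases before the start, which overlap each other. Among 32851 mouse promoters of 300 bases in the same table (250 before and 50 after the start), TTCNNNGAA, which reads the same on both strands, was found in 8.30% and the interferon regulatory factor repeat, searched on both strands, in 3.44%. These matches describe the sequence and are not measured binding sites.

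*Socs2* and *Cish*, the pair of STAT5-induced inhibitors, had the highest mean levels of the SOCS transcripts in the SI-LP NKT cell libraries. *Socs4* followed by its mean, though it was not below *Cish* in every library. Levels are compared between genes in TPM, which divides the counts by gene length, and each gene is placed by its percentile among the 11689 genes that reached 10 counts in 2 or more libraries. All 8 members passed that filter, and 7 of them, all but *Socs1*, had at least 10 counts in every library. *Socs2* reached a mean of 132.6 ± 57.5 TPM (SD, n = 4), the 90.1 percentile, and *Cish* 73.9 ± 43.4 TPM, the 81.0 percentile. *Socs4* followed at 50.5 ± 5.70 TPM, *Socs3* at 22.2 ± 8.83, *Socs7* at 19.0 ± 11.5, *Socs6* at 9.28 ± 6.22, *Socs5* at 7.81 ± 4.27 and *Socs1* at 4.31 ± 5.25.

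Not every step of that order was held in each library. *Socs2* was above *Cish*, and *Socs4* above *Socs3*, in 4 of 4 libraries. *Cish* was above *Socs4*, and *Socs3* above *Socs7*, in only 2 of 4 (replicates 1 and 3 for the former), so these neighbours did not differ beyond the spread of the libraries. *Socs7* was above *Socs6*, and *Socs5* above *Socs1*, in 3 of 4, and *Socs6* above *Socs5* in 1 of 4, where replicate 2 alone set the order of the means. An exact two-sided sign-flip permutation test over 4 libraries cannot give a p below 0.05, so counts of libraries are given in place of p-values.

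The make-up of the family differed most in replicate 2. The 8 genes summed to 402 TPM in replicate 1, 222 in replicate 2, 421 in replicate 3 and 233 in replicate 4. *Socs2* took 43.5%, 30.7%, 44.4% and 43.1% of that sum in replicates 1 to 4, and *Cish* took 24.3%, 14.4%, 29.1% and 18.5%. Both together made up 67.8%, 45.1%, 73.5% and 61.6%, so that replicate 2 was the only library in which the pair took less than the other 6 members together. *Socs4* took 13.3%, 25.5%, 11.4% and 18.8% and was larger in replicates 2 and 4, the libraries with more epithelial and fewer T cell transcripts. *Socs3* took 7.29%, 13.7%, 3.64% and 5.96%.

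**Figure D1:**
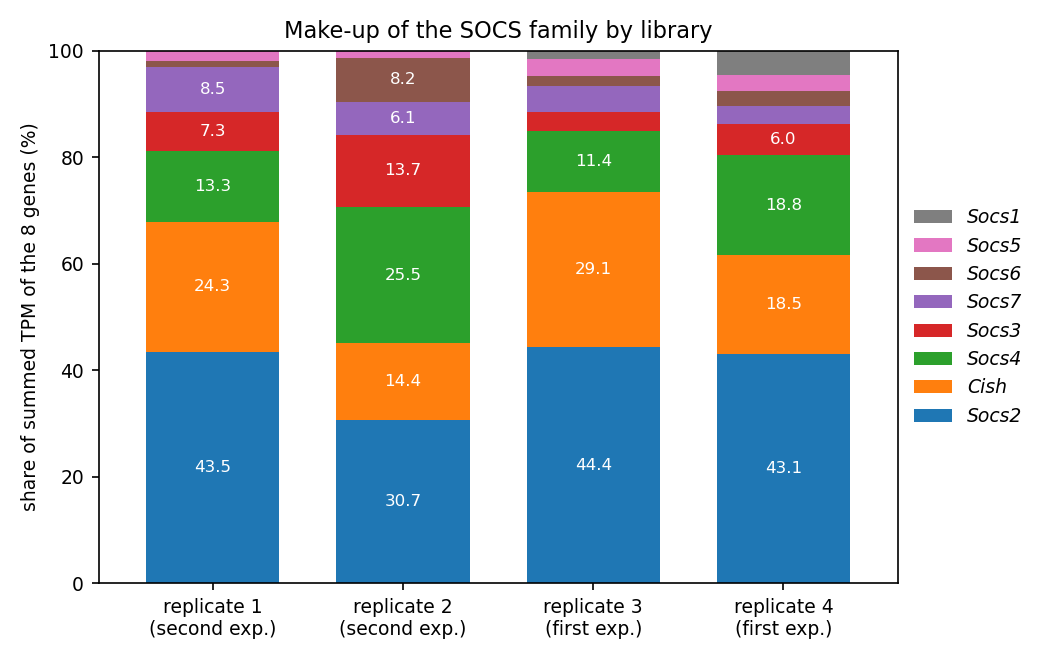
Share of each SOCS gene in the summed TPM of the 8 genes (y axis, %), 1 stacked bar for each of the 4 libraries, with shares above 5% printed. *Socs2* is at 43.1% to 44.4% in replicates 1, 3 and 4 and at 30.7% in replicate 2.

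The 2 leading members had like profiles over the 4 libraries. In CPM (counts relative to library size, scaled with TMM factors, used to compare libraries), *Socs2* was measured at 157, 59.7, 205 and 109.6 in replicates 1 to 4, from 1135, 623, 918 and 437 counts. *Cish* was measured at 98.2, 31.3, 150.2 and 52.4 CPM, from 709, 327, 673 and 209 counts. Both were highest in replicate 3 and lowest in replicate 2, and in each experiment the library with more T cell marker counts was the higher one. In TPM, *Socs2* exceeded *Cish* by 1.79-fold, 2.13-fold, 1.52-fold and 2.34-fold. *Socs2* lies at chr10:95411490-95416857 and *Cish* at chr9:107296659-107302784 (GRCm38), and no exon of them, or of any other member, overlapped an exon of another gene in the table.

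**Figure D2:**
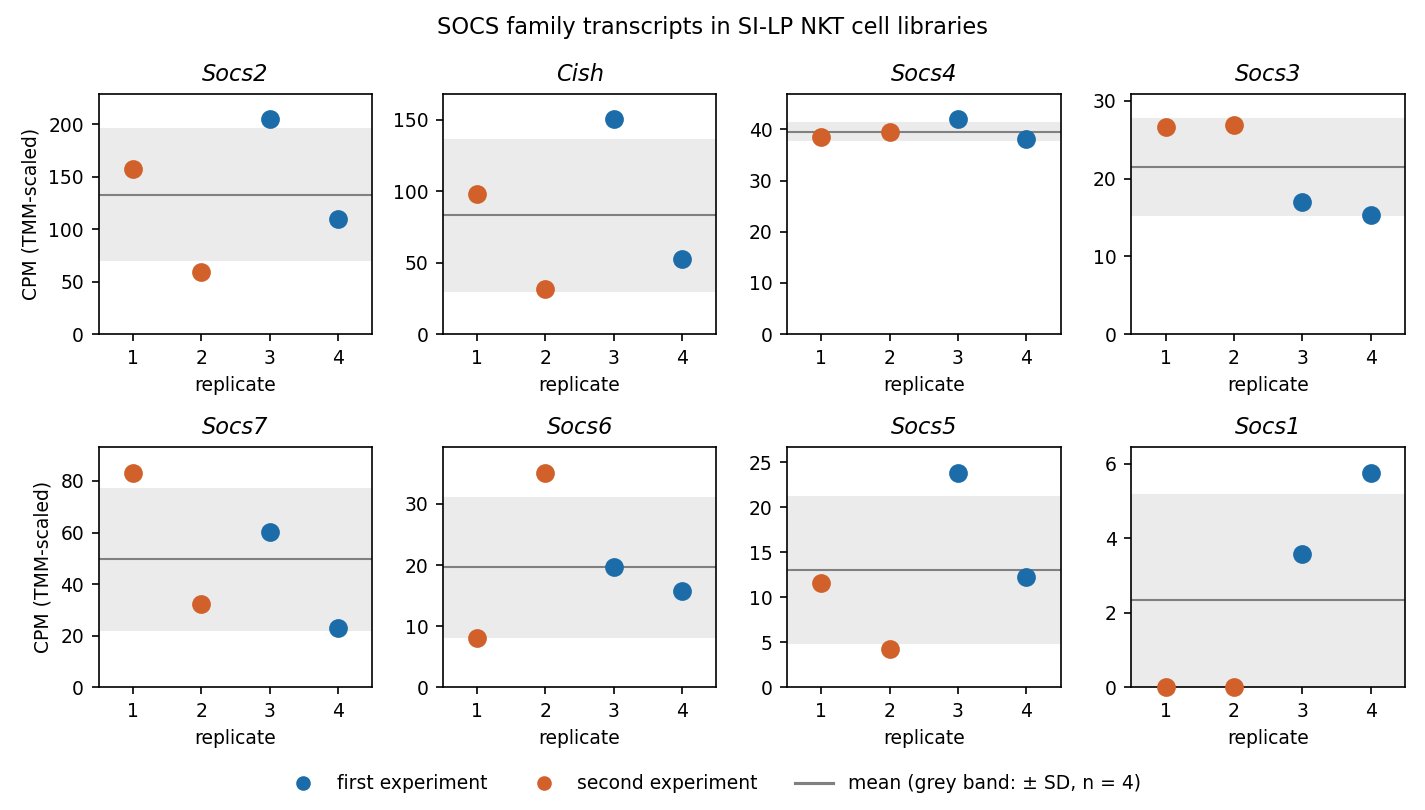
TMM-scaled CPM (y axis, from 0) of the 8 SOCS genes in the 4 libraries (x axis, replicate), with points coloured by experiment, a grey line for the mean and a band for ± SD (n = 4). *Socs4* sits between 38.1 and 42.0 CPM in all libraries, while *Cish* spans 31.3 to 150.2 CPM.

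*Socs4* was the steadiest member on the CPM scale, and *Socs3* came next. *Socs4*, a member linked to signalling by the epidermal growth factor receptor, was at 38.5, 39.5, 42.0 and 38.1 CPM, a mean of 39.5 ± 1.72 (SD, n = 4). Its highest library exceeded its lowest by 1.10-fold, against a median of 3.26-fold over the 8089 genes that reached 10 counts in every library. Of these genes, 0.0494% had a smaller ratio. The ratio depends on the scaling. In TPM it was 1.29-fold for *Socs4* and 2.19-fold for *Socs3*, still the lowest of the members counted in all libraries. With library size alone, *Socs4* was higher by 0.30 (log2) in replicate 2 than 1 and by 0.19 in 4 than 3. *Socs3* was at 26.6, 26.9, 17.0 and 15.3 CPM, a ratio of 1.76-fold with 11.4% of genes below it. Both of its libraries of the second experiment were above both of the first, as for 14.7% of all genes. The other members with counts in all libraries ranged over more: *Socs2* by 3.44-fold, *Socs7* by 3.65-fold, *Socs6* by 4.37-fold, *Cish* by 4.80-fold and *Socs5* by 5.54-fold.

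The less abundant members *Socs7* and *Socs5* were lower in replicates 2 and 4 than in the other library of their experiment, and *Socs6* was highest in replicate 2. *Socs7*, which is known to bind adaptors of insulin receptor signalling, was at 83.3, 32.2, 60.0 and 22.8 CPM and was higher in replicates 1 and 3. *Socs5*, known from work on IL-4 and epidermal growth factor receptor signalling, was at 11.6, 4.31, 23.9 and 12.3 CPM. Both libraries of the first experiment were above both of the second, as for 14.4% of all genes. The gap was small, 12.3 CPM in replicate 4 against 11.6 in replicate 1. *Socs6*, known for binding the receptor tyrosine kinase KIT, was at 8.04, 35.1, 19.6 and 15.8 CPM and stood highest in replicate 2. *Kit* itself had 6, 657, 9 and 109 counts, with its highest value in the same library. In the first experiment the 2 genes went opposite ways. *Kit* was higher in replicate 4 than in replicate 3, while *Socs6* was lower (15.8 against 19.6 CPM). *Kit* was thus higher in replicates 2 and 4, the libraries with more epithelial transcripts, and a link between the genes was not tested. Of the other mast cell markers, *Cpa3* had 4, 0, 0 and 5 counts and the rest had 0, so no mast cell marker but *Kit* was counted in replicate 2. The cells that *Kit* came from were not tested.

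*Socs1* was seen in the first experiment only. It had no count in either library of the second experiment, and 16 and 23 counts in replicates 3 and 4, which is 3.57 and 5.77 CPM. The libraries of the second experiment were the deeper ones, and a count of 0 there allows up to 0.416 CPM in replicate 1 and 0.287 CPM in replicate 2 (3 counts per library, counting error only). The mean of the first experiment was 11.2-fold the larger of these floors, with the counting error of that mean left out. *Socs1* passed the filter on low counts only through the libraries of the first experiment. Its separation of the experiments, here and below, is therefore a description and no test. The gene lies at chr16:10783809-10785536.

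The libraries of one experiment differed from each other in the same direction for *Cish*, *Socs2*, *Socs5* and *Socs7*. With 1 library against 1 there was no test, and the differences in log2 CPM are given as values. *Cish* differed by -1.65 between replicates 2 and 1 and by -1.52 between replicates 4 and 3, and *Socs7* by -1.37 and -1.39, so both were more than 1 log2 unit lower in replicates 2 and 4. Of all genes tested, 8.38% were lower by that much in both experiments and 19.4% higher, and 0 members were higher. *Socs2* differed by -1.40 and -0.90 and *Socs5* by -1.43 and -0.95, which passed 1 log2 unit in the second experiment only. *Socs3* differed by 0.02 and -0.15, *Socs4* by 0.04 and -0.14 and *Socs6* by 2.12 and -0.31. Relative to the summed T cell markers, the differences were -0.25 and -0.074 for *Cish*, 0.027 and 0.052 for *Socs7*, -0.00021 and 0.54 for *Socs2* and -0.028 and 0.49 for *Socs5*. The median over the 7 members counted in all libraries was -1.37 in the second experiment and -0.90 in the first, against 0.13 and 0.10 over all genes. Of the 8 T cell markers, 6 were lower in both experiments by over 1 log2 unit and 0 higher, with medians of -1.35 and -1.79, and of the 18 epithelial markers 14 were higher and 0 lower.

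**Figure D3:**
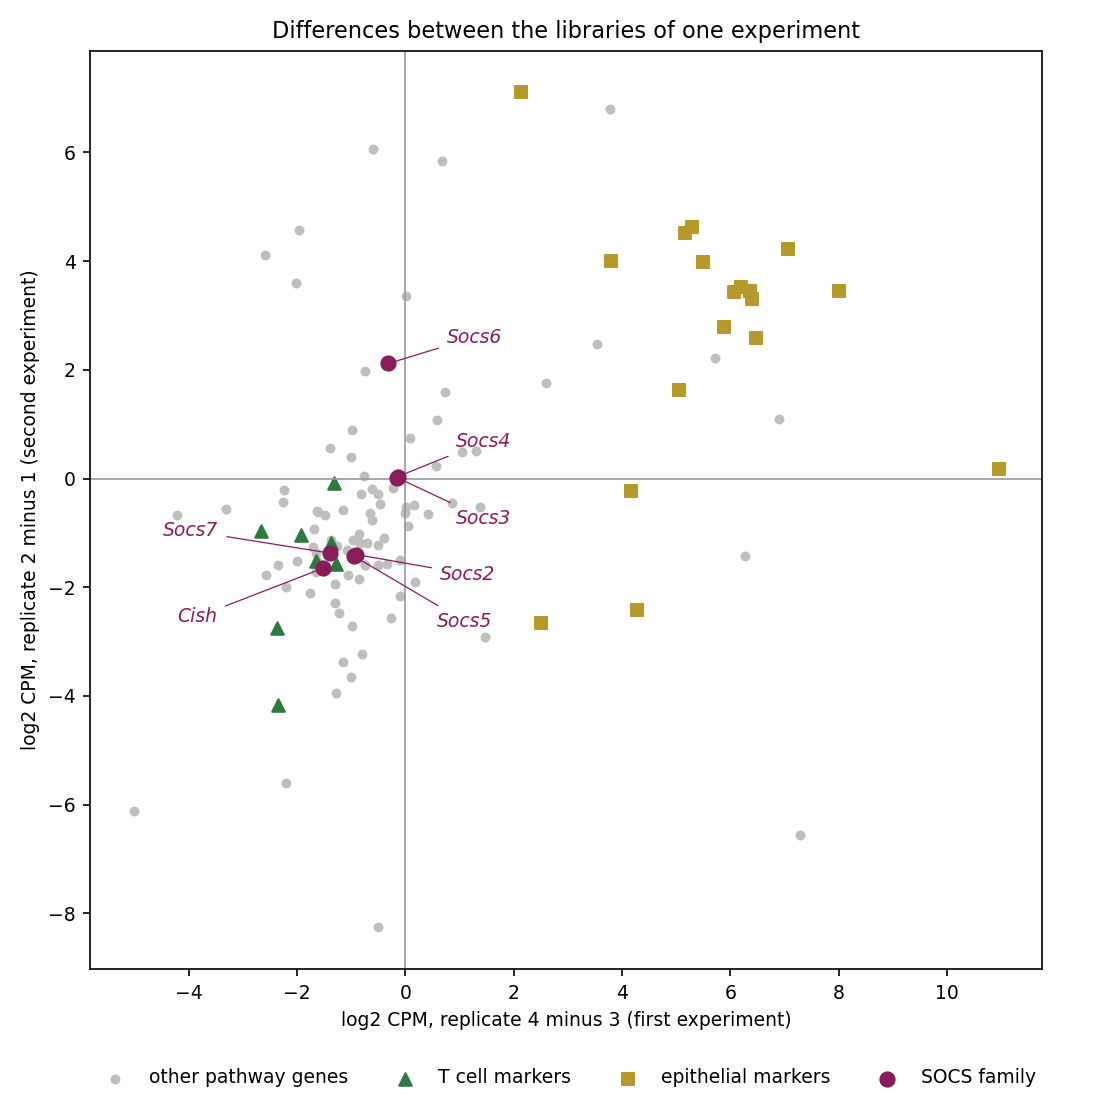
Difference in log2 CPM between the libraries of the first experiment (x axis, replicate 4 minus 3) and of the second (y axis, replicate 2 minus 1) for 7 SOCS genes, T cell and epithelial markers and other genes of the pathway that passed the filter; *Socs1* is left out because it had 0 counts in the second experiment. *Cish*, *Socs7*, *Socs2* and *Socs5* lie lower left beside the T cell markers, and *Socs3* and *Socs4* close to the origin; relative to the T cell markers the sign turns for *Socs7* in both experiments and for *Socs2* to *Socs6* in the first.

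Set against the summed T cell markers of the same library, *Cish* and *Socs2* were nearly level and *Socs4* was not. Most of that sum was *Cd3e*, with 13247, 6428, 9340 and 3408 counts in replicates 1 to 4. The markers were not all level with their own sum. They ranged from 1.16-fold (*Cd247*) and 1.17-fold (*Cd3e*) to 5.07-fold (*Cd5*) and 7.32-fold (*Trat1*). *Cish* had 38.6, 32.4, 44.4 and 42.1 counts per 1000 T cell marker counts in replicates 1 to 4, a range of 1.37-fold where the median gene ranged by 4.83-fold and 0.927% of genes ranged less. *Socs2* had 61.8, 61.8, 60.6 and 88.1, a range of 1.45-fold with 1.53% of genes ranging less, and replicate 4 was the high one. With the 3 CD3 genes *Cd3e*, *Cd3d* and *Cd3g* alone as the reference, the ranges were 1.45-fold for *Cish* and 1.44-fold for *Socs2*. *Cd3e* gave most of the counts of both references, so the second is not an independent check. *Socs4* had 15.1, 41.0, 12.4 and 30.6, a range of 3.30-fold, and *Socs3* had 10.5, 27.9, 5.02 and 12.3, a range of 5.55-fold, both higher in replicates 2 and 4. *Socs6* had the widest range of the 7 members counted in all libraries, 11.5-fold, with 3.16, 36.4, 5.81 and 12.7, and without replicate 2 that range was 4.02-fold and that of *Socs3* 2.45-fold.

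On that scale *Socs7* and *Socs5* separated the experiments. *Socs7* had 32.7 and 33.3 counts per 1000 T cell marker counts in the second experiment and 17.8 and 18.3 in the first. *Socs5* had 4.57 and 4.46 in the second and 7.06 and 9.88 in the first. *Socs7* was the 1 member with both libraries of the second experiment above both of the first, as were 14.8% of all genes, and *Cish*, *Socs1* and *Socs5* were the 3 members below, as were 6.68% of all genes. The gap was small for *Cish*, whose lower first-experiment library stood at 42.1 and whose higher second-experiment library stood at 38.6.

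**Figure D4:**
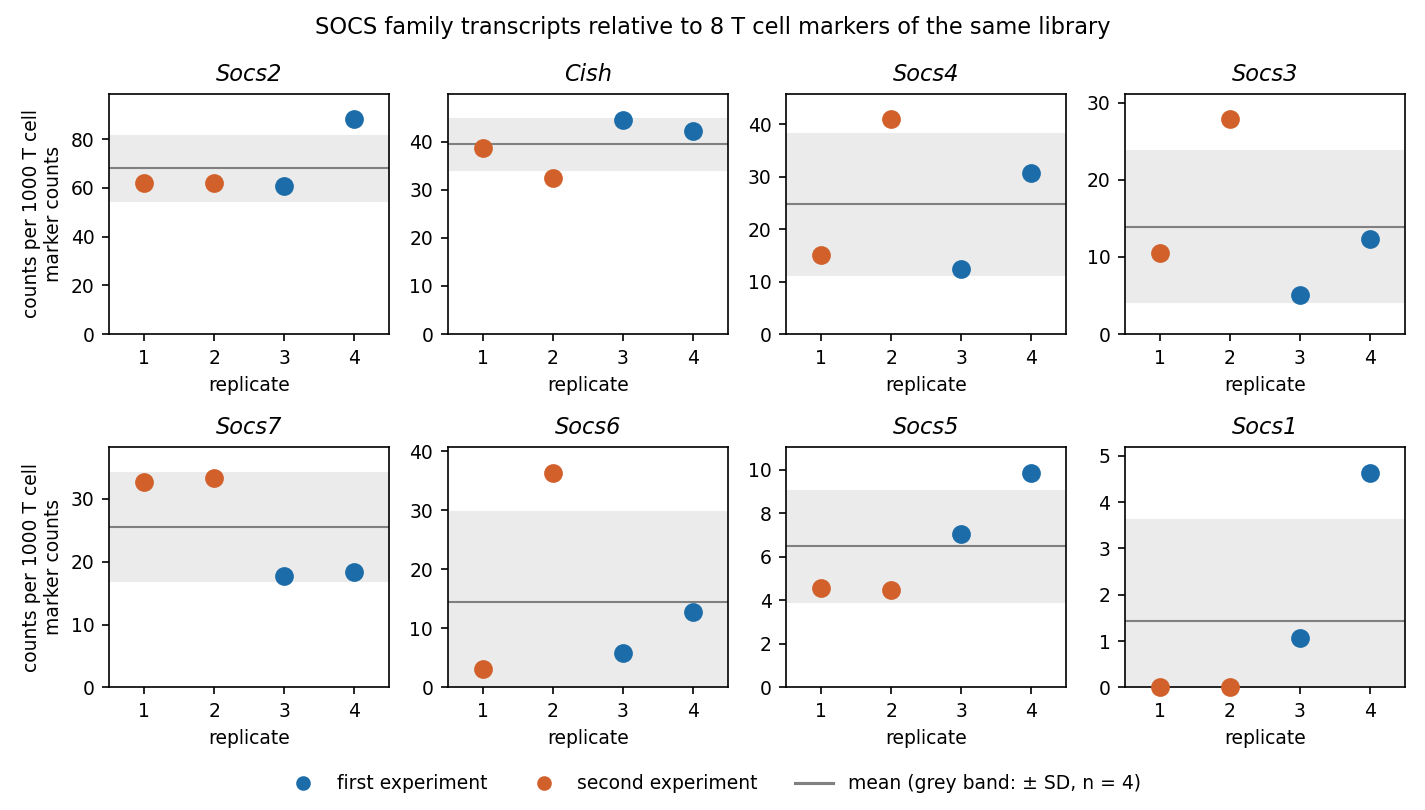
Counts of each SOCS gene per 1000 summed counts of 8 T cell markers in the same library (y axis, from 0) for the 4 libraries (x axis, replicate), with points coloured by experiment, a grey line for the mean and a band for ± SD (n = 4). *Cish* stays between 32.4 and 44.4, and *Socs7* falls into 1 pair at 32.7 and 33.3 and 1 pair at 17.8 and 18.3.

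No SOCS gene was called between the experiments by the test over all genes. The second experiment was set against the first with the quasi-likelihood test of edgeR, adjusted by Benjamini-Hochberg over 11689 genes, and it called 0% of them at an adjusted p under 0.05 and 248 at an unadjusted p under 0.05. DESeq2 called 53 genes, 0 of them members. The common biological coefficient of variation of the fit, 1 value for all genes tested, was 0.976. Over the 4 libraries the CPM of single members had a coefficient of variation from 4.35% (*Socs4*) to 63.5% (*Cish*), and 122% for *Socs1*. Of the members, *Socs1* alone had an unadjusted p under 0.05 (0.035, adjusted p = 0.9997), and its fitted fold rests on libraries at 0 and is not given. *Socs1* passed the filter only through the first experiment, where it was high, so this p is no support for a difference. *Socs3* differed by 0.73 ± 0.99 (log2, SE) and *Socs5* by -1.18 ± 1.31, both with an adjusted p of 0.9997. Of the others, *Cish* differed by -0.65 ± 0.85, *Socs2* by -0.54 ± 0.70, *Socs4* by -0.04 ± 0.76, *Socs6* by 0.29 ± 1.17 and *Socs7* by 0.48 ± 0.88. On CPM, *Socs3* was the 1 member with both libraries of the second experiment above both of the first, as were 14.7% of all genes, and *Socs1* and *Socs5* were the 2 members below, as were 14.4%.

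The leading receptors, kinases, STAT factors and target genes of the pathway stood above *Socs2*, the highest SOCS gene, in mean TPM. The 106 genes of 8 lists (receptors, kinases, STAT factors, SOCS box ligase genes, other SOCS box proteins, other inhibitors, cytokines and STAT targets) included 87 that passed the filter. Of these, 0 were called between the experiments, 21 were lower in replicates 2 and 4 by over 1 log2 unit and 5 higher. Over all genes tested, 0% were called, 8.38% were lower by that much in both experiments and 19.4% higher. The counts of lower and higher genes in each list below stand beside these same shares. Among the receptors (21 of 25 passed, 8 lower and 3 higher), the subunits of the IL-2 and IL-15 receptor *Il2rb* and *Il2rg* led at 1649 ± 1061 and 1145 ± 780 TPM (SD, n = 4), followed by the IFN-γ receptor chain *Ifngr1* at 652 ± 288 TPM. Of the 4 kinases, *Jak1* stood at 368 TPM, *Jak2* at 246, *Jak3* at 34.2 and *Tyk2* at 27.4, and 2 were lower and 0 higher. Of the 7 STAT factors, 2 were lower and 0 higher, and among them *Stat4* stood at 263 TPM, *Stat3* at 158, *Stat6* at 79.8, *Stat5b* at 58.8 and *Stat5a* at 43.4. *Socs2* thus lay below *Stat3* and above *Stat6* in mean TPM.

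Among the genes whose proteins work beside the SOCS family, *Ptprc*, *Elob* and *Cblb* had the highest mean TPM. All 13 other inhibitors of the pathway passed the filter (4 lower, 0 higher), and the phosphatase *Ptprc* (CD45) stood at 479 ± 288 TPM and the ubiquitin ligases *Cblb* and *Cbl* at 225 ± 106 and 148 ± 52.5 TPM. Of the 8 genes listed for the SOCS box ligase (subunits of cullin ligases and proteins that work with them), 0 were lower or higher. The highest were *Elob* (elongin B) at 292 TPM, *Rbx1*, a RING subunit of cullin ligases, at 67.0 TPM and *Arih2*, a partner of them, at 65.0 TPM. Among other proteins with a SOCS box (14 of 16 passed, 2 lower and 2 higher), *Asb2* stood at 101 TPM, *Wsb1* at 93.1 and *Wsb2* at 37.1.

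Of 19 cytokine genes, 7 passed the filter (1 lower, 0 higher), and the highest were *Ifng* at 167 ± 58.2 TPM, *Il4* at 104 ± 64.3 TPM and *Il10* at 18.6 ± 17.4 TPM. *Il2*, *Il9*, *Il12a*, *Il12b* and *Il23a* had 0 counts in all libraries. Of 15 other target genes of STAT factors, 13 passed (2 lower, 0 higher), led by the cyclin *Ccnd2* at 461 ± 206 TPM, the interferon-induced GTPase *Igtp* at 393 ± 156 TPM and the kinase *Pim1* at 362 ± 179 TPM. Per 1000 T cell marker counts, *Ccnd2* ranged by 1.29-fold, *Cblb* by 1.34-fold and *Igtp* by 1.39-fold, beside 1.37-fold for *Cish*, and *Jak3* by 7.81-fold, *Stat4* by 3.25-fold and *Pim1* by 3.08-fold.

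**Figure D5:**
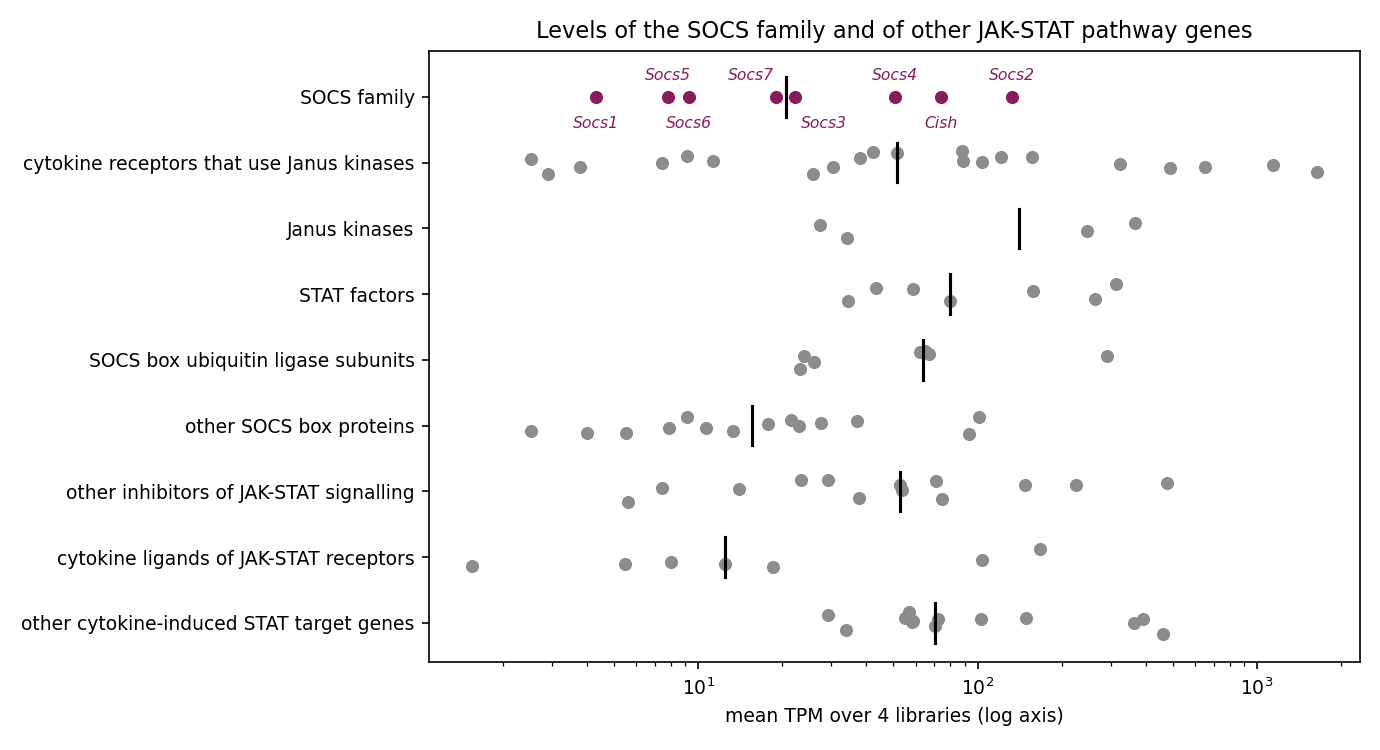
Mean TPM over the 4 libraries (x axis, log scale) of the 8 SOCS genes and of the genes of 8 other lists of the pathway that passed the filter on low counts, 1 point per gene with a black bar at the median of each list; vertical spread of the grey points only separates them. *Socs2* at 132.6 TPM is the highest member, and *Il2rb* at 1649 TPM the highest gene drawn.

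For the 3 most abundant members the genes with the most similar profile were found by the root mean square difference in centred log2 CPM over the 4 libraries. The nearest to *Socs2* were *Stk10* (0.041), *Wipf1* (0.049) and *Acap2* (0.061). The nearest to *Cish* were *Rrad* (0.054), *Isg20l2* (0.063) and *Trmt61b* (0.068), and the nearest to *Socs4* were *Tbce* (0.027), *Ugdh* (0.043) and *Ptdss1* (0.044). *Stk10* was measured at 388, 139.7, 472 and 252 CPM in replicates 1 to 4, in the same order over libraries as *Socs2*. *Socs2* and *Cish* lay 0.24 apart by this measure, and *Socs2* and *Socs4* 0.65 apart. *Socs5* lay 0.32 from *Socs2* and 0.37 from *Cish*, and *Socs7* 0.58 and 0.59. With 4 libraries of one condition these are descriptions of likeness.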

How the data were processed

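The authors deposited raw counts per gene. Per the file headers and the submitters' processing notes, paired reads were counted on exons with featureCounts 1.6.4, primary alignments alone, with a RefSeq annotation of GRCm38 (GRCm38.p6 in the notes) and no strand option; the methods name HISAT2 and another mouse build. Reads of near-identical copies or of antisense transcripts could therefore not be assigned apart. Of 6 library columns, 4 match a sample label and 2 were not used. The positions of all 8 members overlapped their RefSeq positions on GRCm38.p6. Levels between libraries are CPM with TMM factors, levels between genes TPM from the deposited lengths. Differences were tested with edgeR 4.0.16 (R 4.3.3, glmQLFTest, at least 10 counts in at least 2 libraries, log2 CPM prior count of 0.5), with DESeq2 1.42.0 as an alternative. As nothing says that the libraries came from separate animals, p-values measure the spread between these libraries. The members, lists and tests were chosen with earlier results of these data known. Named genes are the 8 members, the 3 most abundant genes of each pathway list (all, for lists of at most 7, except items that are not reported here), and the 3 genes nearest in profile to each of the 3 most abundant members; the 3 pathway genes in the sentence on ranges per T cell marker counts with narrow ranges, and the 3 with wide ones, were picked from the named genes after their values were seen.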

Additional observations from a re-analysis of the deposited data

Results flagged for a closer look

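In 24 sets of 4 values examined for a library far from the others (Dixon's test at its 95% critical value), 2 stood out, where chance alone gives about 1.2. The share of *Socs2* in the family TPM gave 0.908, because replicate 2 was at 30.7% and the other libraries were at 43.1% to 44.4%. The counts of *Socs2* per 1000 T cell marker counts gave 0.956, because replicate 4 was at 88.1 and the other libraries were at 60.6 to 61.8.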

How the results depend on the processing

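No paired analysis was possible because there is 1 condition and no second group to pair with. The alternatives that kept all libraries changed no call of a member, with 0 called in each. The mean CPM of each member stayed within the spread between libraries in all 48 alternatives. Many of these left out 1 library, which cannot move a mean of 4 values beyond their SD, so they do not test the levels. Only the alternatives that scaled the libraries in another way could have moved a mean further, and there it stayed within the spread. Over all genes, the experiments differed in 60 genes without a filter, 53 with DESeq2 and 0 to 7 when each library was left out in turn (7 without replicate 3, 6 without replicate 4); DESeq2 gave no adjusted p for *Socs1*. Counts of neighbours in the order by mean TPM that held in every remaining library were 2 with all libraries and 2 to 4 with one left out, 4 of them without replicate 2. Relative to the T cell markers, the number of members lower in replicates 2 and 4 was 0 in place of 2, and 3 (*Socs3*, *Socs4* and *Socs6*) were higher, beside 46.1% of all genes, whose medians moved to 1.53 and 1.54 (log2); *Socs7* then differed by 0.027 and 0.052 in place of -1.37 and -1.39. With one library left out the difference between the experiments (log2) ranged from -1.65 to 0.29 for *Cish*, from -1.36 (without replicate 1) to -0.0023 (without replicate 2) for *Socs2*, from -2.03 (without replicate 1) to -0.64 (without replicate 2) for *Socs5*, from -0.093 to 0.020 for *Socs4*, from -1.15 to 1.02 for *Socs6* and from -0.33 to 1.32 for *Socs7*. It turned sign for *Cish* without replicate 3 (0.29), for *Socs4* with library size alone (0.22), without a filter (0.0080) and without replicate 1 (0.013) or 3 (0.020), for *Socs6* without replicate 2 (-1.15), and for *Socs7* without replicate 1 (-0.33) or 4 (-0.058); none of these differences was past the threshold. The share of *Socs2* in the family was 39.1% to 43.7% with one library left out and 35.7% by counts without gene length. The percentile of *Socs7* was 44.5 by mean TPM, 69.2 by CPM and 26.7 among genes with 10 counts in every library, that of *Socs6* 26.0, 44.2 and 9.01, and that of *Socs4* 71.9, 63.1 and 61.3. Among the latter genes *Socs3* moved from 48.8 to 31.6 and *Socs5* from 22.0 to 6.19. Why these values moved was not tested. For *Socs1* in the second experiment, a count of 0 allows up to 3 counts per library, and these libraries were the deeper ones.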
